A study of Arabidopsis thaliana with 7 samples.

Results

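The sites described here are E2FB-GFP replicate 1 peaks that shared at least 1 base with an E2FA-GFP or E2FC-GFP replicate 1 peak and no base with any RBR-GFP peak of replicate 1 or 2, on chromosomes 1 to 5. There were 1670 of them among 26356 E2FB replicate 1 peaks, which is 6.34% of the list. A further 23011 E2FB peaks overlapped E2FA or E2FC and also RBR, and these served as the comparison set. The other 1675 had neither E2FA nor E2FC. All 7 libraries came from untreated whole seedlings of Arabidopsis thaliana, cultivar Col0, recorded as grown for 12 days. Every line carried a GFP fusion driven by the promoter of the tagged gene (pE2FA-E2FA-GFP, pE2FB-E2FB-GFP, pE2FC-E2FC-GFP or pRBR-RBR-GFP), and the same anti-GFP antibody was used in all. E2FA, E2FB and RBR had 2 libraries each and E2FC had 1, so E2FC peaks could not be looked up in a second library. Because whole seedlings were used, a peak reports binding summed over all cells of a seedling. Nothing in the labels says whether a line was 1 insertion event.

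E2F transcription factors bind DNA as dimers with DP proteins and control genes of the G1 to S transition. The retinoblastoma-related protein RBR has no DNA-binding domain known to read a sequence on its own. It sits on chromatin through partners such as E2F-DP dimers and holds their targets repressed until cyclin-dependent kinases phosphorylate it. Of the Arabidopsis E2Fs profiled here, E2FC has been classed mainly with repression of its targets, and E2FA and E2FB mainly with activation. The study itself concludes that these E2Fs collectively repress cell cycle genes. An E2F peak with no RBR peak is thus a place where the factor was recorded without the partner it is best known for.

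The first sequences to show are 5 sites that had both an E2FA and an E2FB replicate 2 peak and held TTSSCGSS, the E2F consensus in which S stands for either C or G. The first 4 are those with the highest E2FB replicate 2 fold enrichment outside the mitochondrial-like stretch of chromosome 2 described further on. They are the reference strand of TAIR10, 5′ to 3′, with every consensus match of either strand in capitals. Stretches of noncoding exon were left out, so AT3G24000 starts at its first coding base and AT3G20760 shows 30 bases around the match.
AT3G24000 (chr3:8672774-8672853, 80 bases): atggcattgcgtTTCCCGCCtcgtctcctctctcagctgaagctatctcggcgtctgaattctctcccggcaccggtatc
AT3G20760 (chr3:7258999-7259028, 30 bases): gtcgataaatTTCCCGCCAAcgtcgaagtc
AT4G26280 (chr4:13306410-13306609, 200 bases): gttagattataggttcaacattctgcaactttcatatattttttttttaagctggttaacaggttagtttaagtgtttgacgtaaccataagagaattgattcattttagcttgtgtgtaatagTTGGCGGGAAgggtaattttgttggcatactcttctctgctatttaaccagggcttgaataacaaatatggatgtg
AT5G18720 (chr5:6243824-6243981, 158 bases): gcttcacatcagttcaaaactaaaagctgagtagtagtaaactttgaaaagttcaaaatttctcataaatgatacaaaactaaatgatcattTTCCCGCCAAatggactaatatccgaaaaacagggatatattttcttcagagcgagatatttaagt
AT1G11362 (chr1:3825815-3826014, 200 bases): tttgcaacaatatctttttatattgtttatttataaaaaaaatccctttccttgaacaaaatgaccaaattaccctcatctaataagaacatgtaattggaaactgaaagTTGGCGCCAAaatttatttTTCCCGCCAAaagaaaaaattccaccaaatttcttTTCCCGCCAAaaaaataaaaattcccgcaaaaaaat
In 4 of these 5 sites the matches included a run of 10 letters, TTCCCGCCAA or its reverse complement, which holds the consensus once on each strand. AT1G11362, with 6 matches of which 4 came from that run, was added after its values were seen, because it had the most matches among sites with both replicate 2 peaks. It lay at the edge of the rule, with the nearest RBR peak 15 bp away.

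A site of another kind is shown for contrast, because it was among the 15 with the highest E2FB replicate 1 enrichment and had no replicate 2 E2F peak. It lay near AT2G07768, annotated as a cytochrome c assembly protein, in the mitochondrial-like stretch. Its only match started 88 bases from the centre, inside the 200-base window but past the end of the 164 bp peak.
AT2G07768 (chr2:3273215-3273414, 200 bases): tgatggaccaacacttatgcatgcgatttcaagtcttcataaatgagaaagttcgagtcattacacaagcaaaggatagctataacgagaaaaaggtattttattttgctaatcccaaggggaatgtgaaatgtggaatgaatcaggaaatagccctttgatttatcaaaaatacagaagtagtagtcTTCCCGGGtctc

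The sites were weak and narrow E2FB peaks. Fold enrichment is the deposited ratio of the peak's signal to the local background that MACS2 estimates. In the sites it had a median of 1.46 and a highest value of 2.36, against medians of 1.66 in the peaks with RBR and 1.62 in all E2FB peaks. Their median width was 249 bp against 562 bp. Of the 1670, 43.95% had a q-value under 0.01, against 85.6% of the peaks with RBR. Since the sites were chosen from this list, and a narrow peak has fewer bases to share with RBR, these values describe the selection and were not tested. The share of E2FB peaks that were sites fell with strength, from 15.1% in the lowest quartile of fold enrichment to 0.956% in the highest.

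**Figure D1:**
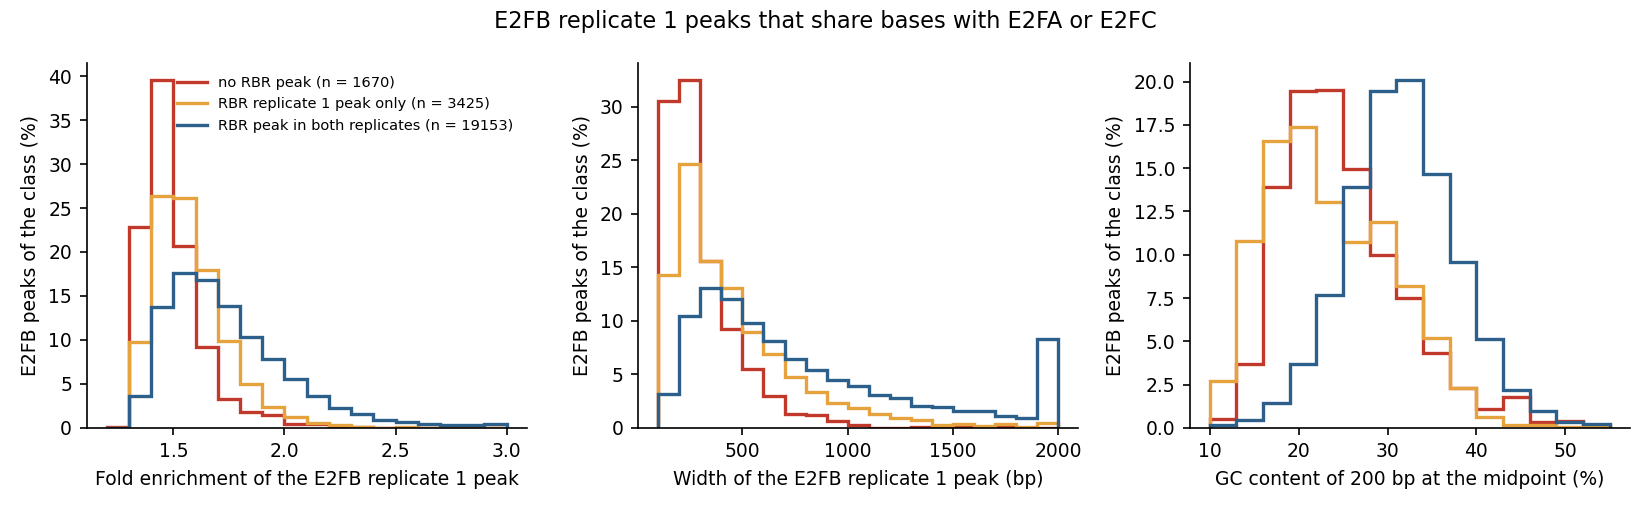
Distribution of E2FB replicate 1 fold enrichment, peak width in bp and GC content in percent for 1670 E2F sites without RBR (red), 3425 peaks with RBR in replicate 1 only (orange) and 19153 with RBR in both replicates (blue), each as percent of its class; the last bin of each panel also holds all higher values. The red lines lie at low enrichment, narrow width and low GC content, and the orange GC line lies with the red.

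Of the 1670 sites, 1402 had both E2FA and E2FC, 207 had E2FA alone and 61 had E2FC alone. Both were thus at 84.0% of the sites, against 73.1% of the peaks with RBR (16811 of 23011). An E2FC peak lay at 87.6% of the sites and at 88.0% of the peaks with RBR in replicate 1 only, so this share is not particular to the sites. Where present, the E2FA replicate 1 peak at a site had a median fold enrichment of 1.79 (n = 1609), and the E2FC peak 1.73 (n = 1463). In the peaks with RBR the same medians were 1.93 and 1.68. The partner also went with base composition: 65.4% of the sites with both E2FA and E2FC had a GC content under 25%, against 15.9% of those with E2FA alone and 6.56% of those with E2FC alone.

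How many of the sites were found again in the second set of libraries could be asked with the E2FB and E2FA replicate 2 lists, which the rule does not use. An E2FB replicate 2 peak lay at 112 of the 1670 sites, or 6.71% (exact 95% interval 5.55 to 8.01), where 74.4% of all E2FB replicate 1 peaks had one. The peaks with RBR reached 79.1% (78.6 to 79.6). For E2FA replicate 2 the share was 6.17% (5.06 to 7.43) of the sites, 70.2% of all E2FB peaks and 74.97% of those with RBR. Both replicate 2 peaks were present at 73 sites, and 1528 sites (91.5%) had neither. All intervals here cover counting error only. Peaks of 1 library are not replicates, so no p-value was computed.

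The gap was present at each level of E2FB strength. Within the lowest quartile of fold enrichment 4.62% of 996 sites had an E2FB replicate 2 peak, against 59.2% of 4443 peaks with RBR. Within the highest quartile, which starts at 1.82, the shares were 14.3% of 63 sites and 94.8% of 6517 peaks. The 42 sites of the mitochondrial-like stretch described further on had a median fold enrichment of 1.89. Only 2 of those 42 had an E2FB replicate 2 peak, and both (1.61 and 1.26) were below this quartile. Among peaks no wider than 305 bp the shares were 6.14% of the sites and 56.6% of the peaks with RBR. Base composition moved with replicate 2 support. Of 429 sites under 20% GC 1 had an E2FB replicate 2 peak (0.233%), and of 148 sites at 35% GC or more 37 did (25%). The peaks with RBR ran from 27.6% to 92.7% over the same classes.

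The RBR replicate 2 list, which the rule does use, shares its replicate number and peak format with the E2FB and E2FA lists of these shares. No source used here says whether those libraries were made together. The 3425 peaks that overlapped RBR in replicate 1 but not in replicate 2 had an E2FB replicate 2 peak in 6.60% of cases (5.79 to 7.48), an interval that overlaps that of the sites. Their median GC content was 22%, and 35.4% of them lay within 1000 bp upstream of a start site. The 19153 peaks with RBR in both replicates had an E2FB replicate 2 peak in 92.0%. When RBR replicate 1 alone was used to remove peaks, 2103 sites remained and 21.97% of them had an E2FB replicate 2 peak. Low replicate 2 shares were thus found in E2FB peaks without RBR replicate 2, with or without RBR replicate 1. Replicate 1 files hold broad peaks and replicate 2 files narrow peaks, and replicate, peak format and experiment cannot be told apart.

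**Figure D2:**
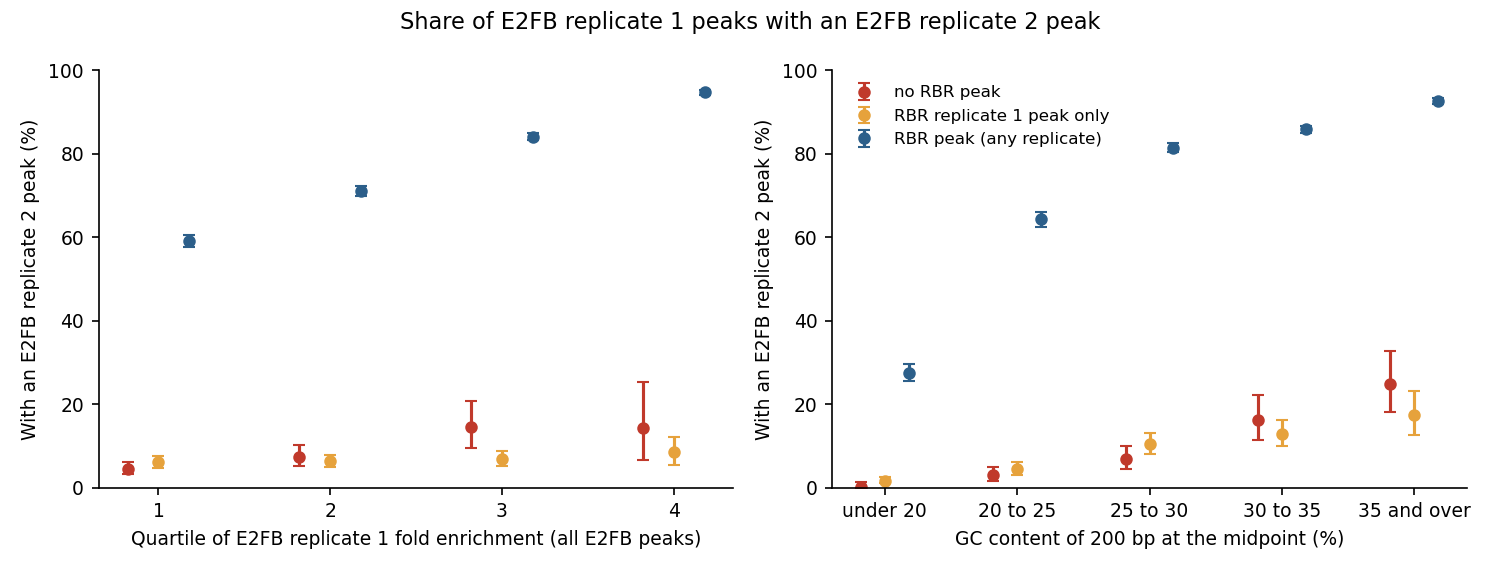
Percent of E2FB replicate 1 peaks with an E2FB replicate 2 peak, by quartile of fold enrichment (left) and by GC content in percent (right), for sites without RBR (red), peaks with RBR in replicate 1 only (orange) and peaks with RBR in any replicate (blue); bars are exact 95% intervals. Red lies at or below 25% in every class, while blue rises to 94.8% and 92.7%. Red and orange intervals overlap except in fold enrichment quartile 3, where red is higher (14.5% against 6.86%).

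The sites were mostly poor in G and C, and the E2F consensus was found in a small, more GC-rich share of them. In the 200 bp around the midpoint the median GC content was 23.5%, against 30.5% in the peaks with RBR, and 57.1% of the sites were under 25% GC, against 20.6%. TTSSCGSS was present in 103 sites, or 6.17% (5.06 to 7.43), where 3.38% of all E2FB peaks held it. The peaks with RBR held it in 3.25% (3.02 to 3.48), but those with RBR in replicate 2 only held it in 7.39% of 433 (5.11 to 10.3), an interval that overlaps that of the sites, and those with RBR in replicate 1 only in 2.04% (1.597 to 2.58). With equal windows shifted by 600 bp either way, the shares were 2.13% for the sites and 2.04% for the peaks with RBR. TTTCCCGC, which overlaps the consensus wherever C or G follows it, was in 4.13% (3.23 to 5.20) of the sites and 0.887% (0.769 to 1.02) of the peaks with RBR. Of the 954 sites under 25% GC 10 held the consensus: 0 of the 429 under 20%, and 1.90% of the 525 from 20% to 25%, against 1.07% of the peaks with RBR in that class. Between 25% and 30% GC the consensus was in 9.70% of 371 sites and 1.24% of 5814 peaks with RBR. At 35% GC or more it was in 21.6% of 148 sites and 8.49% of 5633 peaks. The RBR replicate 1 list decided how far the sites stood from the background: without it 5095 sites were found, and 3.395% of them held the consensus.

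The 10-letter run seen in the printed sequences was picked as the most frequent run of its kind in the 73 sites with both replicate 2 E2F peaks. Its shares in the sites thus partly follow from that choice, and they are given as a description and were not tested. TTCCCGCCAA, in either orientation, was in 51 sites (3.05%, 2.28 to 3.996) and in 56 of the 23011 peaks with RBR (0.243%, 0.184 to 0.316). Over all E2FB peaks 111 held it, so 51 of 111 were sites. In flanking windows it was in 0.719% around the sites and 0.224% around the peaks with RBR. Of the 51 sites, 8 had both replicate 2 E2F peaks and 36 had neither. The letters most frequent among the 103 sites with a match were TTCCCGCC, in 63 sites, and TTGGCGGG, in 57.

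The sites with replicate 2 support held the consensus most often. The consensus was in 32 of the 73 sites with both replicate 2 E2F peaks (43.8%, 32.2 to 55.9), against 57 of the 1528 sites with neither (3.73%, 2.84 to 4.81). Of the 16642 peaks with RBR and both replicate 2 E2F peaks, 681 held it (4.09%, 3.796 to 4.40). The difference was also present within a class of GC content, since at 35% GC or more the shares were 17 of 33 sites (51.5%, 33.5 to 69.2) and 9.23% of 5058 peaks (8.45 to 10.1). Among the narrowest quartile of peaks they were 22 of 45 (48.9%, 33.7 to 64.2) and 4.104% of 1998 (3.28 to 5.07). When the window was placed at the E2FB replicate 2 summit instead, a choice made after seeing the data, 35 of the 73 sites held the consensus (47.9%, 36.1 to 59.96), against 7.78% of the peaks with RBR. The nearest match then lay a median of 25 bases from the summit, and 28 of the 35 were within 50 bases.

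The peaks with RBR in replicate 1 only were again the nearest class. With both replicate 2 E2F peaks there were 115 of them, and the consensus was in 18.3% (11.7 to 26.5) at the midpoint and 32.2% (23.8 to 41.5) at the summit. The midpoint interval lies below that of the sites, and the summit intervals overlap. The 208 such peaks with RBR in replicate 2 only held it in 13.5% (9.14 to 18.9) at the midpoint and 17.8% (12.8 to 23.7) at the summit. Motifs that mark many Arabidopsis promoters were less frequent in the sites than in the peaks with RBR as a whole, but near the shares in peaks with RBR in replicate 1 only. Site II elements TGGGCC and TGGGCT, found upstream of growth-related genes, were in 1.26% and 2.04% of the sites against 9.29% and 8.67% of the peaks with RBR. The G-box CACGTG, bound by bHLH and bZIP factors, was in 2.096% against 6.41%. The MSA core AACGG, bound by MYB3R factors, was in 9.10% against 15.8%. The telo box AAACCCTA was in 1.44% against 1.96%, with intervals of 0.923 to 2.13 and 1.79 to 2.15 that overlap. In the peaks with RBR neither AACGG nor AAACCCTA was above its share in flanking windows (16.2% and 3.14%). The sites were also poorer in G and C, and the shares of these promoter motifs were not compared within classes of GC content. In the peaks with RBR in replicate 1 only the shares were 1.28% for TGGGCC, 1.87% for TGGGCT, 3.27% for CACGTG, 9.17% for AACGG and 0.876% for AAACCCTA.

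**Figure D3:**
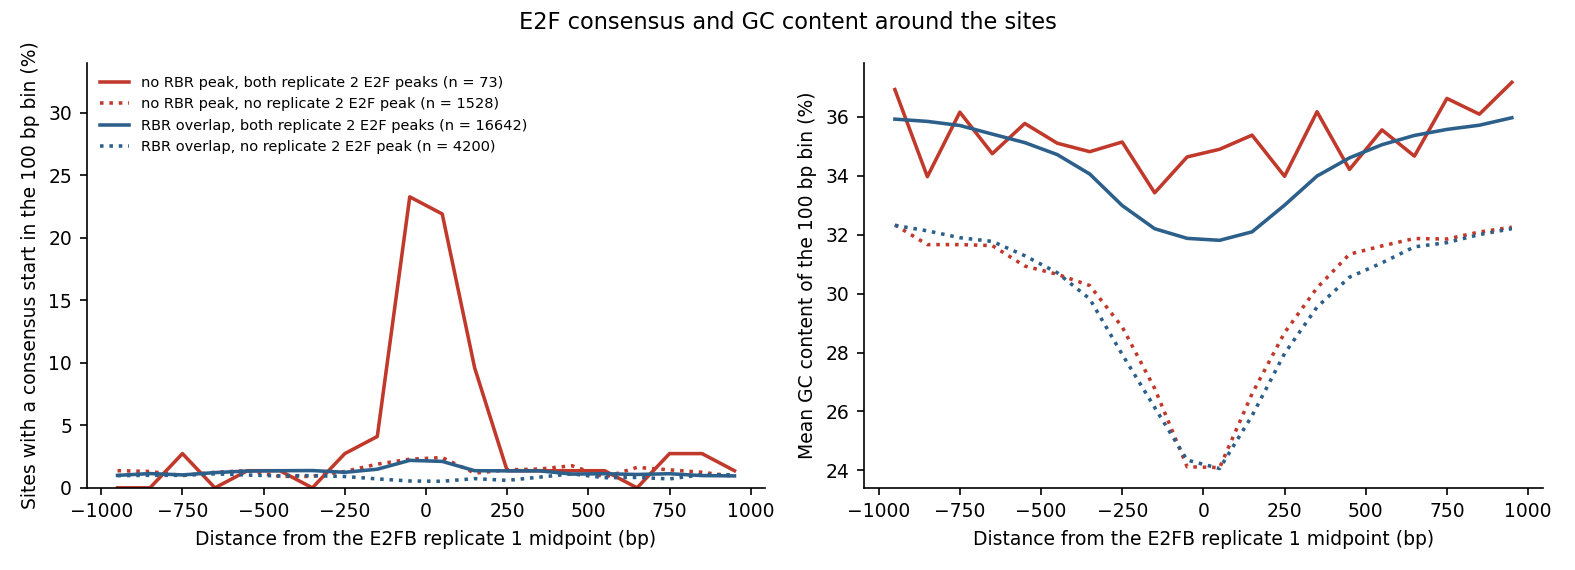
Left, percent of sites with a start of TTSSCGSS in each 100 bp bin, and right, mean GC content in percent of the bin, by distance in bp from the E2FB replicate 1 midpoint, for sites without RBR (red) and peaks with RBR (blue), with both replicate 2 E2F peaks (solid) or neither (dotted). The solid red line rises to 23.3% at the centre and the 3 others stay at or under 2.42%, while both dotted lines dip to about 24.1% GC.

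The sites lay farther from gene starts than the peaks with RBR. The midpoint was within 1000 bp upstream of the nearest annotated transcription start site (TSS) in 614 sites, or 36.8% (34.4 to 39.1), where 51.2% of all E2FB peaks and 52.1% of those with RBR lay there. In every quartile of fold enrichment the sites had the lower share, from 32.7% to 38.6% against 45.4% to 56.8%. The interval from 250 bp upstream to the TSS held 10.8% of the sites and 27.6% of the peaks with RBR. More than 2000 bp from any TSS were 24.3% of the sites against 12.9%. The nearest TSS was that of a pseudogene in 12.1% (10.6 to 13.8) of the sites and 3.17% (2.95 to 3.403) of the peaks with RBR, and of a protein-coding gene in 75.4% against 86.3%. The peaks with RBR in replicate 1 only lay close to the sites in each of these: 8.99% were in the last 250 bp before the TSS, 26.9% were more than 2000 bp away, and the nearest TSS was that of a pseudogene in 11.4% and of a protein-coding gene in 75.6%. By midpoint 82.0% of the sites were intergenic, 8.26% intronic, 6.71% in exon outside coding sequence and 3.05% in coding exon, where all E2FB peaks had 73.1%, 5.64%, 18.6% and 2.57%. The peaks with RBR in replicate 1 only had 86.9%, 6.98%, 5.17% and 0.905%. Of these, the coding exon share (0.616 to 1.28) lay below that of the sites (2.28 to 3.996). The 73 sites with both replicate 2 E2F peaks were nearer to genes: 26.0% of them fell in the 250 bp upstream of a TSS, and 28.8% lay within 1000 bp downstream of it.

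The nearest RBR peak of either replicate was a median of 1008.5 bp away. It was under 100 bp away at 54 sites, at least 100 but under 500 bp at 419, and 10000 bp or more at 77. At the edge of the rule, the peak upstream of bZIP5 touched an RBR peak without sharing a base, and the peak near RSL4, a regulator of root hair growth, stopped 3 bp short. On the other side, peaks near GA3OX2, a gibberellin biosynthesis enzyme, and AG, the floral identity gene AGAMOUS, shared 4 bp with RBR and were left out. There were 31 sites within 50 bp of an RBR peak, and 60 excluded peaks shared 50 bp or less.

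**Figure D4:**
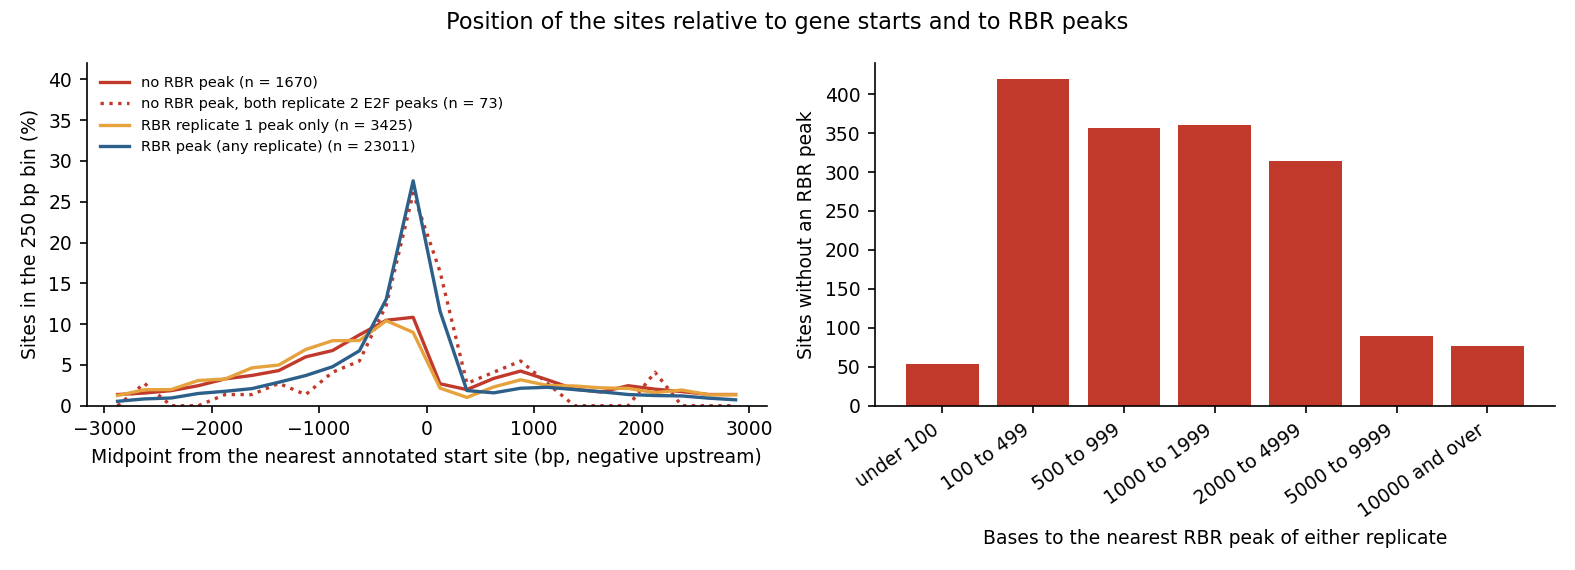
Left, percent of sites in 250 bp bins by distance in bp of the midpoint from the nearest TSS (negative is upstream), for sites without RBR, the 73 with both replicate 2 E2F peaks, peaks with RBR in replicate 1 only and peaks with any RBR; right, number of sites by bases to the nearest RBR peak. The bin just upstream of the TSS holds 10.8% of all sites but 26.0% of the 73, and 419 sites lie at least 100 but under 500 bp from RBR.

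The share of E2FB peaks that were sites was uneven along the chromosomes. The fourth megabase of chromosome 2 had 54 E2FB peaks, of which 47 were sites (87.0%), followed by 57.1% of 7 peaks and 38.5% of 13 peaks in megabases of chromosomes 5 and 3. On chromosome 2 this was mostly a single stretch, chr2:3254905-3501943, next to the centromere, where a copy of the mitochondrial genome is inserted in the reference. It held 45 E2FB replicate 1 peaks, and 42 of them were sites. All 42 matched the mitochondrial sequence in at least 50% of their 31-base words, and no other site did. Of the 23011 peaks with RBR, 2 matched in this way. The stretch held 31 E2FA and 67 E2FC replicate 1 peaks, 23 E2FA and 22 E2FB replicate 2 peaks, and 1 RBR replicate 1 and 4 RBR replicate 2 peaks. Peaks on the organelle genomes themselves, which were left out, numbered 51, 76 and 96 in the E2FA, E2FB and E2FC replicate 1 lists and 4 in the RBR replicate 1 list, but 25, 26 and 97 in the E2FA, E2FB and RBR replicate 2 lists. A short read from such sequence can fit both places. The authors filtered reads by mapping quality, and the part of organelle DNA in these 42 sites after that filter was not tested.

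Those 42 sites held most of the strongest replicate 1 values. By the rule used to name genes, 12 of the 15 sites with the highest E2FB replicate 1 fold enrichment were among them, with 2.05 to 2.23. They lay near AT2G07768, near AT2G07698 (annotated as the alpha subunit of the F1 ATPase) and near tRNA genes, pseudogenes and genes of uncharacterized proteins. None of those 12 had a replicate 2 E2F peak. Of the other 3, one lay at the pseudogene AT4G06474 (2.36 in E2FB, 2.49 in E2FA, 2.62 in E2FC) and one at AT3G06365 (2.18, 2.07 and 2.34). Neither had a replicate 2 E2F peak, and the one at AT4G06474 was 65618 bp from the nearest RBR peak. Without the 42 sites, an alternative added after seeing the data, 6.76% of 1628 sites had an E2FB replicate 2 peak and 5.96% held the consensus.

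Of the 10 sites named by replicate 2 strength, 2 lay in the mitochondrial-like stretch, with 6.07 (the highest) and 4.85 in E2FB replicate 2. The sites outside it are given first, with protein-coding genes before pseudogenes. AT3G24000, annotated as a tetratricopeptide repeat-like protein, had a site centred 54 bp downstream of its TSS. Its fold enrichment was 1.98 in E2FB replicate 1, 1.83 in E2FA replicate 1, 2.28 in E2FC, 7.40 in E2FA replicate 2 and 5.19 in E2FB replicate 2, and RBR was 4047 bp away. All 5 E2F libraries thus had a peak there.

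AT3G20760 encodes the Nse4 subunit of the SMC5/6 complex, which keeps chromosomes intact during replication and repair. Its site lay 861 bp into the gene, in exon outside coding sequence, with 1.65 in E2FB replicate 1, 1.73 in E2FA replicate 1 and 1.54 in E2FC. In replicate 2 it had 4.31 in E2FB and 3.45 in E2FA, and the nearest RBR peak was 636 bp away. The printed match is 21 bases from the E2FB replicate 2 summit.

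AT5G18720, annotated as a DNAJ heat shock domain protein, had a site 74 bp upstream of its TSS with 1.98 in E2FB replicate 1 and 1.698 in E2FA replicate 1. E2FC had no peak there. The replicate 2 values were 3.43 for E2FB and 3.60 for E2FA, and the printed match starts 8 bases before the summit. AT4G26280, a nucleoside triphosphate hydrolase family member, had 1.46 and 1.45 in replicate 1 and 3.67 and 2.15 in replicate 2, for E2FB and E2FA in that order. The nearest RBR peak was 2379 bp from the AT5G18720 site and 316 bp from the AT4G26280 site.

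RPS1, which encodes ribosomal protein S1, had a site 163 bp upstream with no consensus match. Its values were 1.94 in E2FB replicate 1, 2.19 in E2FA replicate 1, 1.89 in E2FC, 3.43 in E2FB replicate 2 and 2.90 in E2FA replicate 2. THAS1, thalianol synthase of a root triterpene gene cluster, was the nearest gene to a site at -3940 bp from its TSS, with 1.596 in E2FB replicate 1 and 3.33 in E2FB replicate 2. The pseudogenes AT3G28350 and AT5G41710 completed the set outside chromosome 2, with 3.92 and 3.43 in E2FB replicate 2. The remaining 2 of the 10, at AT2G07688 and at the tRNA gene AT2G07765, lay in the mitochondrial-like stretch and had 6.07 and 4.85.

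**Figure D5:**
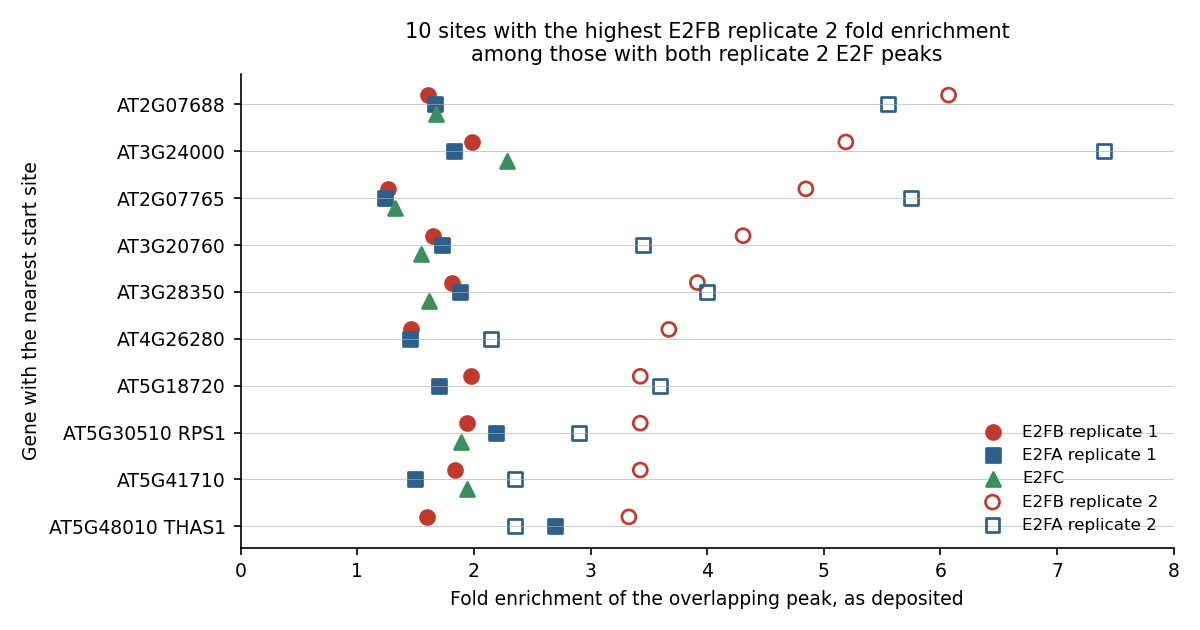
Fold enrichment as deposited, at the 10 sites with the highest E2FB replicate 2 value among the 73 with both replicate 2 E2F peaks, named by the gene with the nearest TSS; filled symbols are replicate 1 and open symbols replicate 2, and a missing triangle means no E2FC peak. Replicate 2 values of E2FB run from 3.33 to 6.07 and its replicate 1 values from 1.26 to 1.98, on scales set by separate peak calls that are not comparable.

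Farther down the 73, and named after their values were seen, were sites at ASY2, which encodes a meiotic HORMA domain protein (3.13 in E2FB replicate 2), at ABA1, the zeaxanthin epoxidase of abscisic acid synthesis (3.13, in an intron, with 1 consensus match), at GRF8, a growth-regulating transcription factor (2.89, 1 match), at the kinase gene MKK7 (2.84, in coding sequence, 1 match), at PYL12 of the abscisic acid receptor family (2.40, 1 match) and at STY1, a regulator of auxin synthesis (1.96, no match).

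Within 500 bp of their TSS, 472 of 27444 protein-coding genes (1.72%) had a site without RBR, and 59.3% had an E2FB peak with RBR. Of 87 genes in 6 lists, 0 had a site without RBR, and 77 had an E2FB peak with RBR. The lists held 9 E2F, DP, DEL and RBR genes, 27 DNA replication genes such as the MCM2 to MCM7 helicase subunits, 23 cell cycle regulators, 9 DNA damage response genes, 8 seed and stomatal regulators and 11 photosynthesis genes. An E2FB peak with RBR was at 9 of 9, 27 of 27, 22 of 23, 8 of 9, 4 of 8 and 7 of 11 of them. At that background a count of 0 among 87 genes does not set the lists apart. Of the 472 genes, 37 (7.84%) also had a separate E2FB peak with RBR in the same window, a count that the choice of genes itself limits.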

How the data were processed

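Chromatin immunoprecipitation of GFP fusions was followed by sequencing in 7 libraries. Per the methods and the submitters' notes, the authors trimmed reads with Trimmomatic (0.38), aligned them to TAIR10 with Bowtie2 (2.3.5), filtered by mapping quality with SAMtools (1.9 in the notes, another version in the study's reporting summary), removed duplicates and called peaks with MACS2 (2.2.7.1); no control library is named. The deposited files give, per peak, a fold enrichment (a ratio to local background), and −log10 values of the p-value and q-value. Replicate 1 files are broad peaks and replicate 2 files narrow peaks with summits. The study gives settings for narrow peaks, in versions that differ between its methods and its reporting summary, and does not assign them to a replicate. Library depth cannot be read from peak lists (the study states read totals for 1 library of each protein, with more mapped reads for RBR than for E2FB), so precision is given as exact Clopper-Pearson 95% intervals on counts of peaks. The methods and the labels differ on plant age, and the label is used.

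Intervals were compared with Python 3.11.15, numpy 2.4.6, pandas 2.3.3 and scipy 1.17.1 after checks on simulated intervals. Peaks on organelle genomes were left out. TSS, exons and sequence came from RefSeq TAIR10.1, whose nuclear chromosomes are those of TAIR10, with 37899 genes. Motifs were counted on both strands in 200 bp at the midpoint. Genes were named if their TSS was nearest to the 15 sites highest in E2FB replicate 1, or to the 10 highest in E2FB replicate 2 among those with both replicate 2 E2F peaks (ties by position), or if a listed gene had a site. One site that this rule selects is not reported here. Members, lists and comparisons were chosen with earlier results of these data known. Alternatives changed the overlap, the RBR lists, the thresholds, the windows and the motif.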

Additional observations from a re-analysis of the deposited data

How the results depend on the processing

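Requiring the shared stretch to cover 50% of the E2FB peak gave 2955 sites, of which 26.4% had an E2FB and 22.27% an E2FA replicate 2 peak, 41.69% were within 1000 bp upstream of a TSS and 4.907% held the consensus. Using only 1 of the 2 RBR lists gave 2103 to 5095 sites, 6.634% to 21.97% with E2FB replicate 2, 6.575% to 15.26% with E2FA replicate 2, 35.84% to 40.66% upstream and 3.395% to 6.419% with the consensus; the higher replicate 2 shares came from the RBR replicate 1 list alone. E2FB peaks with a q-value under 0.01 gave 734 sites, with 10.22%, 10.49% and, for the consensus, 9.809%. Requiring both E2FA and E2FC gave 5.278% and 4.993% for the replicate 2 shares. Starting from the E2FB and E2FA replicate 2 lists gave 230 sites. A replicate 2 summit inside the peak gave 5.329% for E2FB. A window of 500 bp gave 21.32% upstream, and protein-coding genes only 30.48%. The consensus was in 4.431% of 100 bp and 8.623% of 400 bp windows. Setting the RBR limit at 500 bp, keeping RBR peaks with q-values under 0.01 only, TTTSSCGS for the consensus and leaving out the 42 mitochondrial-like sites moved no result beyond its interval or 1.5 times its count. In the 9 alternatives for which it was computed, the E2FB replicate 2 share stayed under the 74.4% of all E2FB peaks. No paired analysis was possible because no result comes from a test between samples. Weak peaks limit what a missing RBR peak can show: no RBR peak was called there, which is not absence of RBR.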

Other observations

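The highest replicate 2 value at any site was 24.996 in E2FA, at a weak E2FB replicate 1 peak (fold enrichment 1.35) at -997 bp from the TSS of AT5G54980, which encodes a membrane protein of the UPF0497 family. The nearest RBR peak was 552 bp away, and E2FB had no replicate 2 peak that shared a base.

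Several sites outside the named set held runs of consensus matches, chosen here after their values were seen. A site near AT5G28235, a Ulp1 protease family gene, had 11 matches in 200 bp and an E2FA replicate 2 peak of 2.05. Of its 31-base words, 22.9% occurred more than once in the nuclear genome, counting copies within the same 200 bp. A site near AT2G20613 had 10 matches, with 33.5% of its words repeated, and no replicate 2 E2F peak. A site near BGLU21, a beta-glucosidase gene, had 9 matches and an E2FA replicate 2 peak of 2.25. Over all 1670 sites, 3.77% had at least 50% of their words repeated in the nuclear genome, against 1.02% of the peaks with RBR and 5.08% of those with RBR in replicate 1 only. Of the 73 sites with both replicate 2 E2F peaks 0 did, which allows a share of up to 4.93% (exact 95% interval, counting error only).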
